A study of Mus musculus with 6 samples.

Results

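The class II histone deacetylases (HDACs) of the embryonic mouse ovary are described here, namely Hdac4, Hdac5, Hdac6, Hdac7, Hdac9 and Hdac10. They were taken by gene name, and these names were carried by 92 of the 114412 transcripts in the count matrix and by 6 of its 35974 gene names. Strand-specific RNA-seq was carried out on whole ovaries of C57Bl6j embryos at E15.5, with 3 pools of ovaries per group. In the PB group, the pregnant mothers received panobinostat (PB) at 5 mg/kg from E6.5 to E15.5, and the control mothers received the vehicle, DMSO and water. The sample annotation gives this dose per day and 4 ovaries per pool, the series description gives 6 to 8 ovaries, and the study's methods give at least 8 ovaries and dosing every other day. A pool holds all cells of the ovary, so fewer cells of a type and less RNA per cell cannot be told apart.

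HDACs remove acetyl groups from lysines, and PB inhibits several of their classes at once. The class IIa enzymes HDAC4, HDAC5, HDAC7 and HDAC9 have little deacetylase activity of their own. They bind MEF2 transcription factors through their N-terminal part and recruit a corepressor complex with HDAC3, and phosphorylation by CaMK, PKD and related kinases sends them to the cytoplasm with 14-3-3 proteins. The class IIb enzymes differ in their targets. HDAC6 has a pair of catalytic domains and deacetylates tubulin, HSP90 and cortactin in the cytoplasm, and HDAC10 deacetylates polyamines.

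Several members are made in forms that differ in their coding sequence, and the forms counted in these ovaries are shown first. HDAC9 exists as a long form with the deacetylase domain and as a short, truncated form without it, known as MITR or HDRP. The short form (GENCODE Hdac9-201, 588 residues) reads on past the exon end at which the long form (Hdac9-205, 1064 residues) splices to the next exon. The 2 sequences below are identical over the 30 bases in lower case, and the capitals mark where they part. In the short form these are its 48 last coding bases. The exon with this alternative end lies on chromosome 12, with the short forms ending in an exon at chr12:34371497-34374138 on the minus strand of mm10.
Hdac9 short form: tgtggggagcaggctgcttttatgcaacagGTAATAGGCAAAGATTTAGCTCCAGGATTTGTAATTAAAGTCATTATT
Hdac9 long form: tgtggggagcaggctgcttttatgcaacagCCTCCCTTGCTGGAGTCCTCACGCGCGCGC

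A second Hdac9 exon, of 132 bases at chr12:34407766-34407897, is known to carry the nuclear localisation signal and a serine that 14-3-3 proteins bind. It was present in some of the counted transcripts and absent from others. It is shown in capitals between its flanking coding bases, from a GENCODE transcript of the long form.
Hdac9 132-base exon: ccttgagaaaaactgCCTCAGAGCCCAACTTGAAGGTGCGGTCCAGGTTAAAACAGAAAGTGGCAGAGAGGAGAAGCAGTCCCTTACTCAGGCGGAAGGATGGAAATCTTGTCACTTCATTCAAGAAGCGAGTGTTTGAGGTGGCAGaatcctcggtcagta

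Hdac4 and Hdac9 each have a cassette exon of 151 bases in the part that encodes their glutamine-rich N-terminus, at chr1:92012669-92012819 and chr12:34433081-34433231. The 2 exons, in capitals and aligned without gaps, were identical at 101 of 151 bases (66.9%).
Hdac4 151-base exon: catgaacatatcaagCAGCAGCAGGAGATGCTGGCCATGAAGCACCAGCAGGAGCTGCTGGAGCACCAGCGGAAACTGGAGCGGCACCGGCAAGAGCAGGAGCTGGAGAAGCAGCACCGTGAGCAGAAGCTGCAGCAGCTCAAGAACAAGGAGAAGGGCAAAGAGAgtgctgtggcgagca
Hdac9 151-base exon: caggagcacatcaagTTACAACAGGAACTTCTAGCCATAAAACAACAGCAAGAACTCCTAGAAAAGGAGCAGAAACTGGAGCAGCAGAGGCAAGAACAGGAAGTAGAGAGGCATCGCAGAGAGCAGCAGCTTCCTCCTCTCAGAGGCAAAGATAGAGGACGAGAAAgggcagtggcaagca

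An exon each of Hdac7 and Hdac10 and a short piece of Hdac4, in capitals, separated the counted transcripts of these genes. They are the 111-base exon of Hdac7 at chr15:97808660-97808770, a 15-base piece at a splice site of Hdac4 at chr1:91968338-91968352, and the 57-base exon of Hdac10 at chr15:89124532-89124588. These lengths are multiples of 3, whereas 151 is not.
Hdac7 111-base exon: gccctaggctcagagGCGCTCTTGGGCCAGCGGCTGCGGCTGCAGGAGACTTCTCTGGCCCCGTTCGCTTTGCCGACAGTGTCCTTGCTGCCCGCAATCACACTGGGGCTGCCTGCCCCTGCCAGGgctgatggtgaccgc
Hdac4 15-base piece: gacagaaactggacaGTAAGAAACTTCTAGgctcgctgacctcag
Hdac10 57-base exon: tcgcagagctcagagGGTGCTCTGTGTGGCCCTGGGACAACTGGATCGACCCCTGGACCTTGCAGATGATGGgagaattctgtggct

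The counts of a pool summed to between 97165644 and 125985399, so that the floor of 3 counts corresponded to 0.0238 to 0.0309 CPM, the counts scaled to library size. The marker genes of germ cells, pregranulosa cells, endothelial cells, mesonephros, red blood cells, macrophages, Sertoli cells and steroidogenic cells were all counted in some pool, and none of those tested was called as changed. Cyp21a1, of the steroidogenic cells, had at most 0.077 CPM in any pool and was not tested. Pax2 and Lhx1 of the mesonephros and Amh and Dhh of the Sertoli cells stayed at or under 2.5 CPM. The remaining marker of each of these lists was higher, with 10.6 to 14.5 CPM for Pax8 and 10.3 to 14.7 CPM for Sox9. Kit, a marker of germ cells, and Tie1, of endothelium, had an unadjusted p under 0.05, as did 4.46% of all genes tested. Their log2 fold changes were -0.29 and -0.24 (edgeR, FDR = 0.888). The other germ cell markers had -0.036 for Ddx4, -0.0031 for Dazl, -0.082 for Stra8 and 0.34 for Sycp3. Of the 6 endothelial markers, 5 had a negative log2 fold change, and Kdr had 0.055. The summed levels of the lists spread within the groups. The germ cell markers ranged from 529 to 702 CPM in control and from 452 to 773 CPM in PB, and the red blood cell markers from 4740 to 14291 CPM in control and from 8654 to 9038 CPM in PB. The endothelial markers ranged from 341 to 374 CPM in control and from 323 to 346 CPM in PB.

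All 6 members were expressed in every pool. To compare the members with each other, counts were divided by exon length and scaled to the same total in each pool, as TPM. Hdac5, taken over its whole locus for the reason given below, reached 33.0 ± 1.66 TPM (SD, n = 6 pools) and Hdac6 28.9 ± 3.53 TPM. Hdac7 followed with 24.1 ± 1.54 TPM and Hdac4 with 13.4 ± 1.99 TPM. The Hdac4 value includes 2 assembled transcripts on the other strand, of 395 and 1226 bases. Being short, they weigh more in this value than in the counts, and the level without them was not calculated. Hdac10 was at 4.15 ± 0.344 TPM and Hdac9 at 2.61 ± 0.449 TPM. The ranges of Hdac5 and Hdac6 overlapped, as did those of Hdac6 and Hdac7, although the order was the same in 6 of 6 pools. From Hdac7 downwards, through Hdac4 and Hdac10 to Hdac9, the ranges of successive members did not overlap. On the same scale, the class I enzymes Hdac2 and Hdac1 stood above every class II member, with 133 ± 9.84 and 104 ± 8.08 TPM, and Hdac3, the partner of the class IIa enzymes, was at 65.6 ± 10.5 TPM. The class IV enzyme Hdac11 (24.4 ± 1.76 TPM) lay beside Hdac7, and Hdac8, of class I, was at 9.73 ± 0.664 TPM.

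The gene sums, the counts of all transcripts with one gene name, were then compared between control and PB in CPM scaled by TMM. None of the 6 members was called by edgeR (fold change of at least 2 and FDR of at most 0.05), where 0.0154% of the 19435 genes tested were called. None had an unadjusted p under 0.05 by edgeR or by DESeq2, against 4.46% of all genes by edgeR. In none did the control and PB pools separate without overlap, which 10.7% of all genes did. The members' median log2 fold change was 0.039, beside 0.0020 for all genes tested.

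Hdac4, a class IIa repressor of MEF2, measured 53.5, 52.1 and 55.2 CPM in control and 58.6, 55.2 and 54.8 CPM in PB. The 2 lower PB pools lay beside the highest control pool, and the log2 fold change was 0.068 with an SE of 0.052 (edgeR, FDR = 0.888). Hdac7, the class IIa enzyme known from the endothelium, measured 60.7, 63.5 and 66.5 CPM in control and 58.9, 67.7 and 59.8 CPM in PB. Its highest and its lowest pool were both PB pools, and the log2 fold change was -0.033 with an SE of 0.071 (edgeR, FDR = 0.939). The endothelial markers summed to lower values in 2 of the 3 PB pools than in any control pool, and their part in the level of Hdac7 was not tested.

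Hdac9, the class IIa member with the lowest level per length, measured 9.44, 7.496 and 8.93 CPM in control and 10.7, 8.91 and 10.3 CPM in PB. The 2 highest pools were PB pools, but PB 2 lay among the controls. The log2 fold change was 0.21 with an SE of 0.12 (edgeR, FDR = 0.888).

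Of the class IIb members, Hdac6, the tubulin deacetylase, measured 84.7, 69.7 and 74.7 CPM in control and 81.6, 69.3 and 80.0 CPM in PB, with a log2 fold change of 0.011 and an SE of 0.095 (edgeR, FDR = 0.989). Both its highest and its second lowest pool were controls. Hdac10, the polyamine deacetylase, measured 6.56, 6.94 and 7.18 CPM in control and 6.403, 7.23 and 5.62 CPM in PB, with a log2 fold change of -0.10 and an SE of 0.12 (edgeR, FDR = 0.898). For these 5 genes the interval of 2 SE around the log2 fold change stayed within -0.34 and 0.45, so that a 2-fold change of the gene sum lay outside it. With known transcripts alone, which leaves out the leading assembled transcript of Hdac7, the log2 fold change of Hdac7 was -0.37 and its interval reached from -1.13 to 0.38, which includes a 2-fold decrease.

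**Figure D1:**
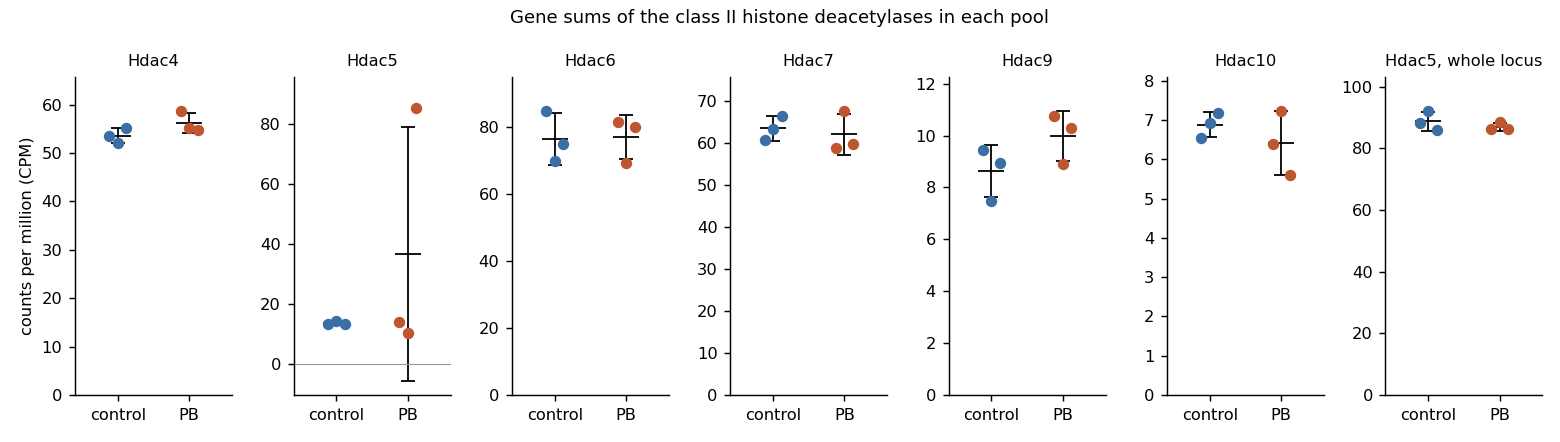
Each panel plots the gene sum of a class II HDAC in CPM (vertical axis, linear, separate scale per panel) for the 3 control pools (blue) and the 3 PB pools (orange), with the mean and the SD in black. The groups overlap in every panel, the PB 3 pool of Hdac5 stands apart at 85.5 CPM, and the Hdac5 locus as a whole lies between 86.1 and 92.1 CPM in all pools. The locus was scaled in a separate fit, so its CPM are not on the same scale as those by name.

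Hdac5, the remaining class IIa member, stood out by a single pool. The transcripts named Hdac5 measured 13.1, 14.2 and 13.3 CPM in control and 14.1, 10.1 and 85.5 CPM in PB. PB 3 was thus several times higher than the other 5 pools, and the log2 fold change of 1.43 had an SE of 0.79 (edgeR, FDR = 0.888). Without PB 3 the log2 fold change was -0.16.

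Other transcripts of the same locus carry another gene name. The locus on chromosome 11 (chr11:102194428-102230183, minus strand) also holds the microRNA gene Mir8101 at chr11:102230040-102230150, inside the first exon of Hdac5 at chr11:102230005-102230183. StringTie assembled 3 multi-exon transcripts that contain this stretch, and the authors' table names them Mir8101. Of their introns, 25 of 25, 24 of 25 and 27 of 27 were also introns of transcripts named Hdac5. Together with the annotated microRNA transcript, they held 7726, 9510 and 7182 counts in control and 7478, 8390 and 460 counts in PB. The transcripts named Hdac5 held 1288, 1653 and 1250 counts in control and 1395, 1029 and 9937 counts in PB. In 5 pools the name Hdac5 thus covered 10.9% to 15.7% of the counts of the locus, and in PB 3 it covered 95.6%.

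**Figure D2:**
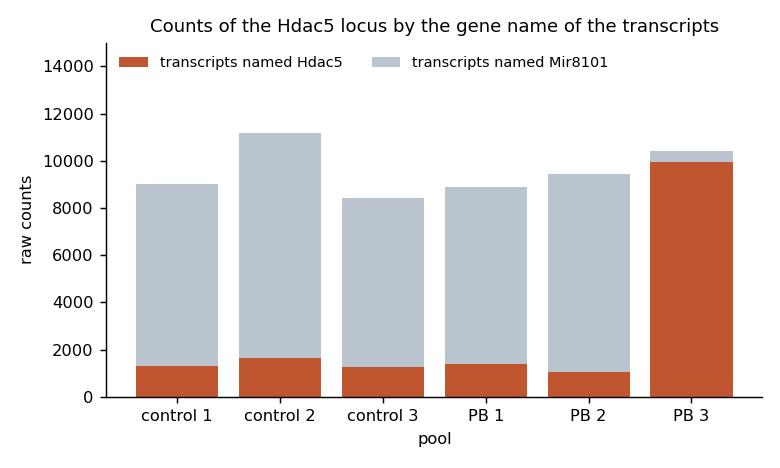
Stacked bars give the raw counts of the Hdac5 locus in each pool (horizontal axis), divided by the gene name of the transcripts. The total stays between 8432 and 11163 counts, while the part named Hdac5 is 1029 to 1653 counts in 5 pools and 9937 counts in PB 3.

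Summed over the locus, Hdac5 measured 88.2, 92.0 and 86.1 CPM in control and 86.2, 88.4 and 86.3 CPM in PB. Loci were scaled in a separate fit, so these CPM are not on the same scale as those by name. Hdac6, with the same counts in both, measured 84.7 CPM by name and 81.4 CPM by locus in control 1. All 6 pools lay within a narrow range, with a coefficient of variation (CV) of 2.61% against 119% for the transcripts named Hdac5. The log2 fold change was -0.030 with an SE of 0.046 (edgeR on loci, FDR = 0.923). The pools also differed in the last exon of the counted transcripts. A last exon of 96 bases at chr11:102196022-102196117 is used by 2 of the 3 assembled transcripts and by a known transcript named Hdac5. It held 79.1% to 84.7% of the counts of the multi-exon transcripts of the locus in 5 pools and 1.94% in PB 3, and the last exon at chr11:102194428-102195868 held 14.4% to 20.9% and 98.0%. Whether these counts differ by the transcripts made or by StringTie's split of the reads was not tested. The sum over the locus was examined after the counts by name had been seen.

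Next, the single transcripts were compared. Of the 92 transcripts, 88 were known RefSeq transcripts and the others were assembled by StringTie. In all, 12 had no count in any pool, 32 were counted in all 6 pools and 48 in 1 to 5 pools. Of the 58 with at least 100 counts in all, 31 were at or under the floor of 3 counts in some pool. None of the 48 member transcripts that entered the test was called, where 0.0332% of the 51227 transcripts tested were called, and 1 had an unadjusted p under 0.05, against 3.56% of all transcripts. DESeq2 called none of the 68 member transcripts it tested, against 1.61% of all transcripts, and 6 of the 68 had an unadjusted p under 0.05, against 7.17% of all transcripts.

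The transcripts varied far more between pools than the sums. The median CV of the tested transcripts over the 6 pools was 55.5% for Hdac4, 114% for Hdac6, 63.2% for Hdac7, 64.3% for Hdac9 and 99.98% for Hdac10. The gene sums of these members had CVs of 3.98%, 8.37%, 5.81%, 12.4% and 9.11%. Over all genes and transcripts tested, the median CVs were 10.7% and 45.5%. The share of a transcript in its gene was compared with the exact permutation test, in which 3 pools against 3 cannot go below p = 0.1. Of 32 named transcripts, 2 had shares that did not overlap between the groups, both of Hdac5 counted by name. No p of the named shares passed the adjustment (smallest adjusted p = 0.711, two-sided exact permutation test). Of the 48 member transcripts that entered the edgeR test, 3 did not overlap, against 9.76% of the shares of tested transcripts in all genes. These are the 2 of Hdac5 and XM_006521209.2 of Hdac7.

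**Figure D3:**
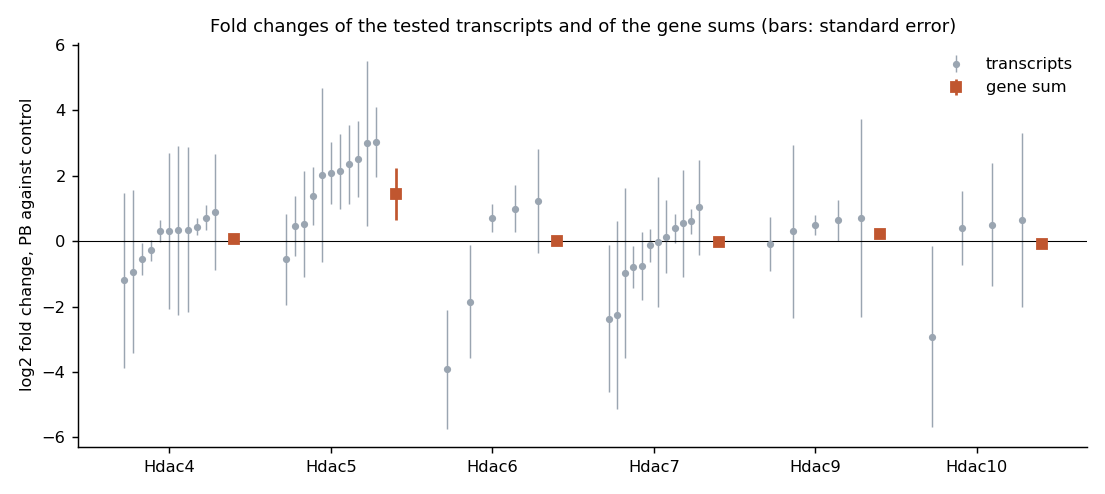
Grey points give the log2 fold change between PB and control of each tested transcript and orange squares that of the gene sum, with the standard error as bars. The transcripts of a gene spread from -3.91 to 3.04, on both sides of 0 in every member, while the sums of all members except Hdac5 lie between -0.10 and 0.21.

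In Hdac6, the pools differed in which of several transcripts with different first exons held the counts. NM_001130416.1 and XM_006527567.2 shared 27 of 28 introns, and so did NM_001130416.1 and NM_010413.3. NM_001130416.1 and NM_010413.3 match GENCODE transcripts of the same coding length, 3447 bases. XM_006527567.2 held 4601, 4018 and 29 counts in control and 29, 256 and 302 counts in PB. It was high in 2 control pools, while control 3 was as low as the lowest PB pool. NM_001130416.1 held 2729, 2352 and 5453 counts in control and 5513, 5198 and 7590 counts in PB, so that it was high where the other was low. The 136-base first exon of XM_006527567.2 accounted for 35.1 ± 30.1% of the counts in control and 2.41 ± 1.78% in PB (SD, n = 3, two-sided exact permutation p = 0.3). In the test of single transcripts, XM_006527567.2 had a log2 fold change of -3.91 with an SE of 1.81 (edgeR, FDR = 1).

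In Hdac7, the 2 leading transcripts also differed in how they start. MSTRG.6633.9, assembled by StringTie, shared all 22 introns of XM_011245699.1 and had 1 more, which leads to a first exon farther upstream. XM_011245699.1 held 1931, 3154 and 2720 counts in control and 2170, 107 and 2505 counts in PB, and MSTRG.6633.9 held 2012, 3313 and 2237 counts in control and 1800, 5436 and 2775 counts in PB. In PB 2 the first was nearly absent and the second at its highest, and the other 5 pools showed both at like levels. The transcript XM_006521208.3 has its own first exon of 55 bases at chr15:97825506-97825560. It held 384 and 547 counts in PB 1 and PB 2, where it made up 6.58% of the Hdac7 counts and 7.91%, and at most 1 count in any other pool. It did not pass the filter for the edgeR test, and DESeq2 gave it an adjusted p of 0.0555. It includes both the 111-base exon shown above and a 21-base piece at chr15:97807768-97807788, neither of which is part of the 2 leading transcripts.

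**Figure D4:**
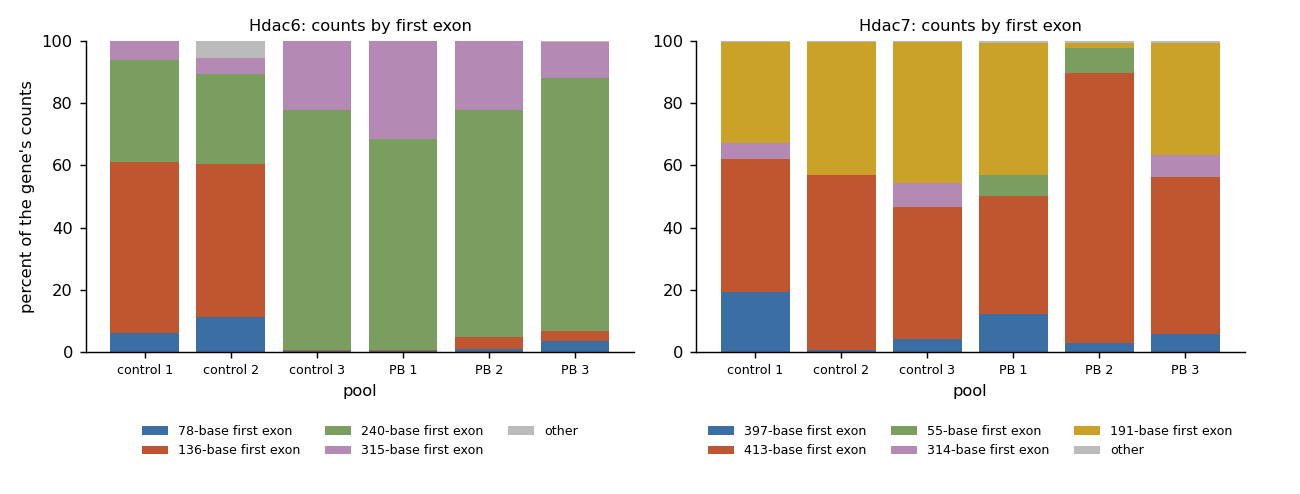
Stacked bars divide the counts of Hdac6 (left) and Hdac7 (right) in each pool by the first exon of the transcripts, in percent of the gene's counts. The 136-base exon of Hdac6 holds 55.3% and 49.4% in control 1 and 2 and at most 3.62% in the other pools, and the 191-base exon of Hdac7 drops to 1.74% in PB 2 alone.

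The exons, ends and splice sites, coding or not, were then summed over the transcripts that contain them, a grouping chosen after the counts of single transcripts had been seen. Of 53 so grouped, 5 (9.43%) did not overlap between the groups, and none reached an adjusted p under 0.707 (two-sided exact permutation test). Of single-transcript shares in all genes, 9.76% did not overlap, and no such share was computed for grouped forms. The 53 are not independent, as Hdac5 was grouped by name and over the locus and some ends mirror each other. The short forms of Hdac9 held 56.0%, 54.0% and 75.9% of its counts in control and 50.5%, 49.3% and 64.3% in PB. Short and long forms thus held near equal counts in 4 pools, and the short forms led in control 3 and PB 3. The mean shares of counts were 62.0 ± 12.1% and 54.7 ± 8.33% (SD, n = 3, two-sided exact permutation p = 0.5). These counts were not divided by length. The short forms are the shorter transcripts, with 4230 bases in XM_006515275.3 against 9133 in XM_011243911.2, so per length they made up more than these shares show. The long forms were led by XM_011243911.2, with 271, 300 and 157 counts in control and 379, 329 and 330 counts in PB.

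The Hdac9 exon with the nuclear localisation signal was included in 46.0%, 60.4% and 100% of the counts in control and in 50.1%, 100% and 54.9% in PB. One pool of each group was at full inclusion and the others near equal parts of the counts, again not divided by length. In control 1 and PB 1 the counts without this exon came from the short form XM_006515275.3, which held 501 and 531 counts there and 0 in control 3 and PB 2. The 151-base exon of Hdac9 shown above was rarely skipped, with 0 to 53 counts per pool from transcripts without it. It also occurred in a version of 142 bases that lacks 9 bases at a splice site. Of the counts with either version, the one of 151 bases held 98.1%, 69.9% and 47.4% in control and 99.3%, 47.3% and 100% in PB, so that 1 pool of each group had more of the shorter version. The 151-base exon of Hdac4 was included in 92.7% to 100% of the counts.

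In Hdac4 the assembled transcript MSTRG.507.1 led in all 6 pools, with 2136, 1524 and 1693 counts in control and 1927, 3093 and 2563 counts in PB. It shared 24 of 26 introns with XM_017319482.1, from which it differs by 15-base pieces at 2 splice sites. It has the piece shown above and lacks one at chr1:91982253-91982267. The first piece was included in 61.6%, 60.2% and 67.6% of the counts in control and in 71.1%, 77.1% and 63.9% in PB, so that 2 PB pools stood above all controls and the third among them (p = 0.2, two-sided exact permutation test). The second was included in 58.0%, 63.6% and 54.6% in control and in 54.2%, 35.6% and 57.6% in PB, where PB 2 was the lowest pool. A further 2.62% to 5.03% of the counts named Hdac4 came from 2 assembled transcripts on the other strand.

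The 111-base exon of Hdac7 was a minor form in all pools, with 19.8%, 9.01% and 17.7% inclusion in control and 24.2%, 17.8% and 18.9% in PB (two-sided exact permutation p = 0.4). The 57-base exon of Hdac10 was included in 94.4%, 100% and 26.5% in control and in 87.8%, 98.8% and 100% in PB, with control 3 apart from the rest. There, XM_006520543.2 held 491 counts, against 0 to 65 counts in the other pools. Hdac10 had 4 different leading transcripts over the 6 pools and so did Hdac9, whereas Hdac4 had 1.

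**Figure D5:**
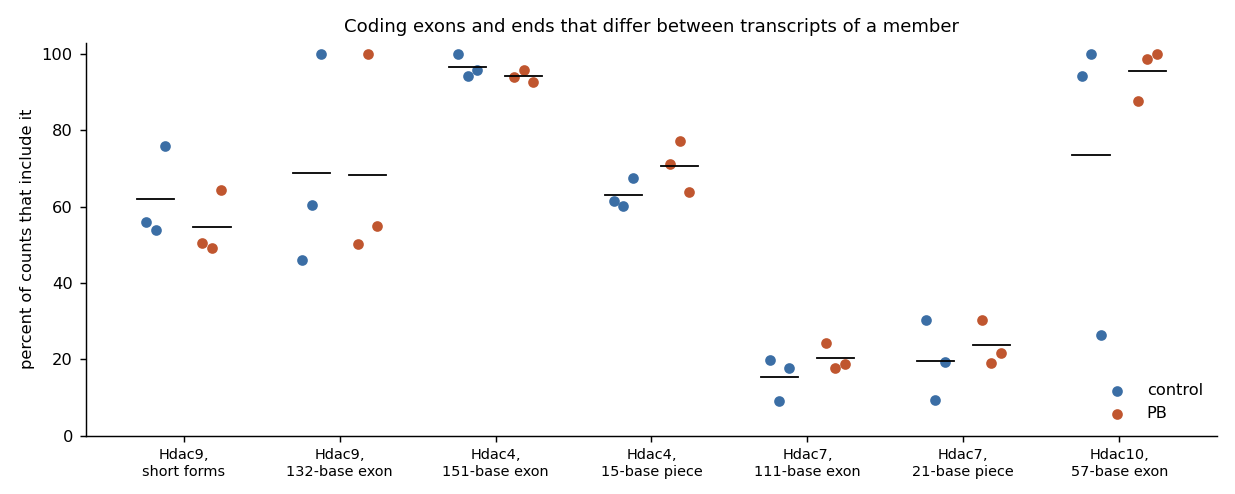
Points give the percent of counts that include each coding form in the 3 control pools (blue) and the 3 PB pools (orange), and black lines the group means. The 111-base exon of Hdac7 lies under 25% and the 151-base exon of Hdac4 over 90% in all pools, and the 132-base exon of Hdac9 reaches 100% in one pool of each group.

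Among the grouped forms that did not overlap, 2 of the 5 concerned a piece of 4 bases at a splice site of Hdac5 (chr11:102195948-102195951), counted by name and over the locus. Its inclusion was 3.74%, 3.17% and 3.30% in control and 9.33%, 8.00% and 9.28% in PB among transcripts named Hdac5. Among all transcripts of the locus with either form of this splice site, it was 2.58%, 2.44% and 3.18% in control and 9.33%, 4.10% and 8.95% in PB. These leave out the transcripts that end in the 96-base last exon, which held most counts of the locus in every pool but PB 3. In counts, the piece held 48, 52 and 38 in control and 120, 75 and 903 in PB. The exact permutation test gave p = 0.1 in both cases, the smallest it can give. The piece belongs to NM_001284250.1, the member transcript with an unadjusted p under 0.05, which held 46, 38 and 36 counts in control and 118, 69 and 902 counts in PB. Its log2 fold change was 3.04 with an SE of 1.07 (edgeR, FDR = 1), and 1.25 without PB 3. Another 2 were the alternative first exons of Hdac5, counted by name alone. The one of 221 bases, used by XM_006532254.3, accounted for 14.7%, 3.09% and 1.76% of the counts named Hdac5 in control. In the PB pools it accounted for 1.15%, 0.875% and 1.75%. The highest PB pool and the lowest control pool were next to each other. Its counts were 189, 51 and 22 in control and 16, 9 and 174 in PB, so that the counts of the groups overlapped. The name Hdac5 covered most of the locus in PB 3 alone, so these shares rest on unlike parts of the locus. The share of this exon over the locus is not given. The fifth was the 142-base version of the Hdac9 exon against its absence, measured on as few as 9 counts in PB 3.

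Partner genes of the members were examined with lists of 71 genes, of which 68 were tested. None was called, and 6 had an unadjusted p under 0.05 by edgeR, against 4.46% of all genes tested. In these lists 35 genes had a positive and 33 a negative log2 fold change, with a median of 0.0018 (0.0020 over all genes tested).

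Among the 4 MEF2 factors, Mef2a measured 101, 101 and 91.1 CPM in control and 132, 112 and 126 CPM in PB. All PB pools stood above all control pools, and the log2 fold change of 0.34 (SE 0.075) did not pass the adjustment over all genes (edgeR, unadjusted p = 0.00316, FDR = 0.888). Mef2d, at a like level, had a log2 fold change of 0.051, and the lowest of the list was Mef2b with -0.034. The 6 genes of the corepressor complex lay between -0.027 for Gps2 and 0.12 for Tbl1x, with Hdac3 at -0.0047. Of the 19 kinases that phosphorylate class IIa enzymes or activate those kinases, Prkaa2, a catalytic subunit of AMPK, had the highest log2 fold change with 0.39 (SE 0.12, edgeR FDR = 0.888). It measured 3.08, 3.94 and 3.53 CPM in control and 4.52, 4.59 and 4.71 CPM in PB, without overlap. Camk4 had 0.35 (SE 0.14) and Camk2b the lowest value with -0.30, and the median of the list was 0.012.

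The 7 genes of 14-3-3 proteins lay between -0.17 for Ywhaz, which was lower in PB 1 alone, and 0.22 for Sfn. Both ankyrin repeat adaptors were near 0, with 0.031 for Ankra2 and -0.0070 for Rfxank. Of 10 genes that class IIa enzymes are known to repress in other tissues, 7 were tested, with a median of -0.16. Myog, the highest with 0.94 (SE 0.91), measured 2.94, 7.85 and 5.51 CPM in control and 1.46, 23.9 and 5.91 CPM in PB, so that the value rested on PB 2. Sost was the lowest with -0.60 (SE 0.51), and Nppa and Nppb had no counts in any pool.

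Among 13 substrates and partners of HDAC6, Tuba4a, an alpha-tubulin, measured 44.4, 42.8 and 39.9 CPM in control and 31.5, 36.6 and 30.9 CPM in PB. Its log2 fold change of -0.36 (SE 0.084) did not pass the adjustment (edgeR, unadjusted p = 0.00413, FDR = 0.888), although the pools did not overlap. The more abundant Tuba1a and Tuba1b had log2 fold changes of -0.11 and 0.011, and the highest of the list was Plaa with 0.091. Of 10 genes of polyamine enzymes and their regulators, 9 had a negative log2 fold change, and none was called. Their median was -0.075, beside 0.0020 over all genes tested. Paox, a polyamine oxidase, had -0.18 (SE 0.064) and Srm, the spermidine synthase, -0.21 (SE 0.083), both with FDR = 0.888 (edgeR). Sat1 was the lowest with -0.31 (SE 0.16) and Azin1 the highest with 0.0024.

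To see which genes varied most like a member, log2 CPM were correlated over the 6 pools with 14776 genes of at least 1 CPM. As a description, the highest Pearson r was 0.983 for Hdac4 with Leprotl1 and 0.990 for Hdac6 with Ufsp2. It was 0.998 for Hdac7 with Mir202, 0.989 for Hdac9 with Kctd11 and 0.996 for Hdac10 with Baz2b. Over 6 points that share library and depth, between 8 and 63 genes reached an r of 0.95 with the sum of a member by name, and 80 did so with the Hdac5 locus, of which Tbcel had the highest with 0.995.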

How the data were processed

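RNA-seq of 3 control and 3 PB pools was analysed. Samples were grouped by the treatment given in their annotation, although the series description numbers all 6 libraries as exposed mice. HISAT2 2.1.0 (mm10) and StringTie 1.3.5 (RefSeq) were run by the authors, who deposited raw counts per transcript that prepDE derives from coverage. Where transcripts overlap, StringTie estimates how the reads are split between them, and the whole numbers do not show how certain that split is. The deposited table of the authors' own DESeq2 1.30.0 comparison (log2 fold changes, p-values and 6 columns of normalized values) was used for gene names and annotation alone. Depth per pool is given with the results, and floors cover counting error only.

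Gene sums were tested with edgeR 4.0.16 (R 4.3.3, TMM, filterByExpr with minimum 10 and total 15, quasi-likelihood F-test, Benjamini-Hochberg). The SE was the log2 fold change divided by the square root of F. Nothing states that the pools share no litter, so p-values measure the spread between these pools. Transcripts with no gene name (3.05% to 4.49% of counts) were left out of the gene sums. Shares were compared with exact permutation tests in scipy 1.17.1. Members, gene lists and tests were chosen with earlier results of these data known. Named were all members, transcripts with at least 5% of a gene's counts in a group or an unadjusted p under 0.05, XM_006521208.3, and in each partner list the highest, the lowest and those with an unadjusted p under 0.05. Other names were chosen after their values were seen. Sequences are from GENCODE M21 transcripts on GRCm38, of which 20 of the 92 intron chains matched one. In simulated data, 99% of 200 gene sums changed 4-fold among 19201 were recovered. All genes were given the same spread, the 20.9% that edgeR fitted to all genes together. The members' sums differ in spread, with CVs of 3.98% for Hdac4 and 119% for Hdac5 by name, and this was not simulated. Transcripts were all given the same spread, the 98.4% that edgeR fitted to all transcripts together. Of these, 0% of those changed 4-fold (49496 tested) and 36.5% of those changed 64-fold (49270 tested) were recovered. With the spread fitted to the genes (20.9%), 98% of transcripts changed 4-fold (50727 tested) were recovered. Alternatives were DESeq2 1.42.0 and its size factors, no filter, a replicate block, known transcripts, StringTie loci, counts per length and leaving out each pool. The gene most like Hdac5 by name is not reported here.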

Additional observations from a re-analysis of the deposited data

How the results depend on the processing

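No member and no member transcript was called under any alternative run. The number of genes called over all genes was 3, against 11 with DESeq2, 8 with known transcripts, 0 with the replicate block and 3 to 9 when a pool was left out. The number of transcripts called was 17, against 1172 with DESeq2, 0 with the replicate block and 0 to 19 when a pool was left out. The same-numbered pools correlated at 0.1001, 0.224 and 0.0358 in their deviations from the group means, and differently numbered pools at -0.207 to 0.149. Whether the numbers mark pairs cannot be decided from these values, and the main fits did not pair the pools. Of the 32 named shares, 2 did not overlap, beside 9.76% of the shares of tested transcripts in all genes. The number was 1 per exon length and 2 to 8 when a pool was left out. Groups of 2 against 3 pools separate more easily by chance, and the share over all genes is not given for these alternatives. Of the 53 forms grouped by exon or splice site, which are not independent, 5 did not overlap.

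Of 331 log2 fold changes recomputed, 306 kept their direction and their side of the threshold and 25 turned in sign. The turned values of members were -0.19 for Hdac4 with known transcripts and -0.030 for Hdac5 over the locus. With a pool left out, Hdac5 ranged from -0.16 (without PB 3) to 1.88, and Hdac6 from -0.054 (without control 2) to 0.091, turning also without control 3, PB 1 or PB 3. Among the partners, Azin1 was at -0.0010 with DESeq2 size factors, -0.0016 with DESeq2, -0.0027 without filter and -0.028 with known transcripts. With a pool left out, Azin1 ranged from -0.058 to 0.061, Gps2 from -0.11 to 0.065, Mef2b from -0.47 to 0.40, Ankra2 from -0.014 to 0.063, Ywhaz from -0.34 to 0.091, Plaa from -0.012 to 0.22, Myog from -0.56 (without PB 2) to 1.45 and Rfxank from -0.047 to 0.026. The cause of these turns was not tested. The level of Hdac7 per length was 13.5 TPM and that of Hdac4 5.95 TPM with known transcripts, since all assembled transcripts, the leading ones among them, are then left out. Hdac9 was at 1.56 TPM and Hdac4 at 10.1 TPM by the length of the most abundant transcript.

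With the common spread fitted to all transcripts, 4-fold changes of single transcripts were not recovered in simulated data. Single transcripts differ in spread, with CVs from 24.7% to 109% among the tested transcripts of Hdac4, and this was not simulated. Leaving out a pool leaves 2 against 3.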
